A study of Canis lupus familiaris with 17 samples.

Results

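CD3E, CD3G, CD3D, CD8A, CD2, CD5 and CD28 were followed in circulating leukocytes of dogs, as the T cell receptor complex genes and the surface molecules that act beside it. The 7 genes were chosen by symbol, and each had 1 row among the 20257 genes counted in every dog: ENSCAFG00000012802 (CD3E), ENSCAFG00000012780 (CD3G), ENSCAFG00000031719 (CD3D), ENSCAFG00000007464 (CD8A), ENSCAFG00000009829 (CD2), ENSCAFG00000016332 (CD5) and ENSCAFG00000012872 (CD28). In the RefSeq annotation of UU_Cfam_GSD_1.0, another assembly than the CanFam3.1 build of the counts, CD3G, CD3D and CD3E lie next to each other. Single-cell 3′ RNA-seq was run on density-gradient blood leukocytes of 7 healthy dogs and 10 dogs with osteosarcoma (OS), a bone tumor of large dogs, with 1 library per dog. All dogs were labelled wild type, the healthy dogs were middle-aged, and the OS dogs were middle-aged or older, 5 of them being middle-aged. According to the study's methods, the OS dogs had their primary tumor and were untreated at blood collection. Libraries held 1332 to 7748 cell barcodes and 7740230 to 56510134 unique molecular identifiers (UMIs, one per captured transcript). After filters on genes, UMIs and mitochondrial counts and removal of doublets, 80407 cells remained, 1226 to 6632 per dog, of which 1688 carried a barcode sequence that was also present in another library.

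The T cell receptor recognizes peptide held by major histocompatibility molecules but has no signaling tail of its own. CD3E, CD3G and CD3D encode the ε, γ and δ chains that assemble with the receptor, carry it to the surface and relay its signal by means of the kinases LCK and ZAP70. CD8A encodes the coreceptor chain for class I molecules and brings LCK to the receptor. CD2 is an adhesion and costimulatory receptor for CD58 or CD48, CD5 is a scavenger-family receptor that dampens receptor signaling, and CD28 delivers the costimulatory signal from CD80 and CD86. Outside T cells, CD2 is known from natural killer (NK) cells and some dendritic cells, CD5 from a B cell subset, and cytoplasmic CD3 chains from NK cells and progenitors in some species.

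Cells were clustered without the 7 genes and without a list of T cell receptor signaling genes, and clusters were named from other markers. Each class name therefore means resemblance to a marker list and is used below without the suffix "-like", TCM standing for central memory T cells. T cells numbered 40785, with 770 to 4371 per dog, a median of 5411 UMIs per cell, and all 9 common T cell markers with a row higher than in the other cells. All 10 NK, 12 B cell, 9 plasma cell, 15 monocyte, 14 dendritic cell and 11 neutrophil markers were likewise higher in the class of that name. The names were given from these same lists, so this describes the classes and is no check of their names. Healthy dogs had T cell shares of 50.9% ± 10.8 (SD, n = 7) among leukocytes, and the share of OS dogs was 54.8% ± 10.2 (SD, n = 10). Levels are given as CPM, the UMIs of a gene per 1000000 UMIs of a class in 1 dog, as mean ± SD over the dogs with at least 25 cells of the class, 17 dogs unless another n is given. Classes were formed by genes expressed along with the members, so differences between classes are descriptions and carry no test. Because 3′ counts depend on how well each transcript end is captured and annotated, levels were compared between classes and not between genes.

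All T cell classes carried the 3 CD3 transcripts, and at the depth of these libraries nearly every T cell showed at least 1 of them. CD3E was at 918 ± 111 CPM in T cells, CD3D at 438 ± 85.8 CPM and CD3G at 303 ± 48.8 CPM. At least 1 CD3 UMI was found in 99.5% ± 0.46 of T cells, with 98.1% in the lowest dog and 99.9% in the highest. All 3 transcripts were found in 66.0% ± 8.0 of T cells, exactly 2 of them in 28.2%, exactly 1 in 5.30% and none in 0.512%. These T cells leave out a class of 1974 T cells with few ribosomal transcripts, described below, and with that class included, as done after the values were seen, the share without any CD3 transcript was 2.35% ± 2.10 and reached 9.07% in the highest dog. The same share with any CD3 was 6.99% ± 3.71 in monocytes, at a median of 11060 UMIs per cell, and 3.02% ± 1.73 in neutrophils, at 1715 UMIs. Monocytes and neutrophils should lack the receptor, and whether free RNA or doublets gave these transcripts was not tested. With doublets kept, CD3E in monocytes was at 24.1 CPM, where it was at 5.73 CPM without them.

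The share of T cells with a transcript differed widely between the genes, and a T cell without one may either not express the gene or have lost it in capture (dropout). CD3E was detected in 97.7% of T cells, CD3D in 85.6%, CD3G in 76.4%, CD2 in 70.3%, CD5 in 36.8%, CD28 in 33.1% and CD8A in 17.9%. Including the low-ribosomal class gave 95.7% for CD3E, 82.5% for CD3D, 73.8% for CD3G and 68.4% for CD2, and moved the other 3 genes by less than 1 SD. When each cell was thinned to 1000 UMIs, leaving out 147 shallower T cells, detection fell to 59.5% for CD3E, 34.8% for CD3D, 25.9% for CD3G, 23.6% for CD2, 8.63% for CD5, 8.42% for CD28 and 5.42% for CD8A. Any CD3 transcript was then found in 79.5% ± 3.18 of T cells.

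Detection of 6 of the 7 genes rose with the depth of the T cell. In T cells with 500 to 2500 UMIs, CD3G was detected in 36.01% of 717 cells from 9 dogs, and in those with 2500 to 5000 UMIs in 69.6%. It reached 81.2% at 5000 to 10000 UMIs and 92.9% at 10000 to 20000 UMIs. Over the same bins CD28 rose from 12.3% to 22.7%, 39.8% and 68.1%, and CD5 from 12.5% to 29.6%, 41.3% and 61.8%. CD8A was the exception, with 14.0%, 19.98%, 15.5% and 16.2%. Within effector/memory CD8 T cells alone CD8A did rise, from 41.0% of cells at 500 to 2500 UMIs (4 dogs) to 48.1%, 63.1% and 69.3% (2 dogs) in the deeper bins. Classes differed in depth, with a median of 4438 UMIs in effector/memory CD8 and 5744 in CD4 T cells. Within CD4 T cells alone CD28 rose from 20.8% (7 dogs) to 34.9%, 49.6% and 75.5% (13 dogs).

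The share of T cells without a transcript was compared with a Poisson law that gives every T cell of a dog the same fraction of its UMIs for the gene. For CD3E the observed zeros exceeded that law by 0.33 ± 0.32 percentage points, for CD3G by 2.18 ± 1.08 and for CD3D by 2.34 ± 1.23. CD5 exceeded it by 3.13 ± 1.67 points, CD2 by 5.13 ± 1.37, CD8A by 8.003 ± 4.77 and CD28 by 8.83 ± 4.83. In percentage points the excess was thus smallest for CD3E and largest for CD8A and CD28. CD3E, detected in 97.7% of T cells, had few zeros and could show only a small excess. The order follows the level of each gene in part and is not read as a difference between genes. Within effector/memory CD8 T cells the excess was 4.75 ± 3.44 points for CD8A and 1.29 ± 1.478 for CD28. T cells with none of the 3 CD3 transcripts, 0.512%, were more frequent than the Poisson law for their sum, 0.306%, in 16 of 17 dogs. Within CD4 T cells this held in 12 of 17 dogs and within effector/memory CD8 T cells in 11 of 17. They also exceeded the product of the 3 separate zero shares, 0.0907%, in 17 of 17 dogs. That product ignores that cells differ in depth, which by itself raises joint zeros, so no conclusion is drawn from it.

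**Figure D1:**
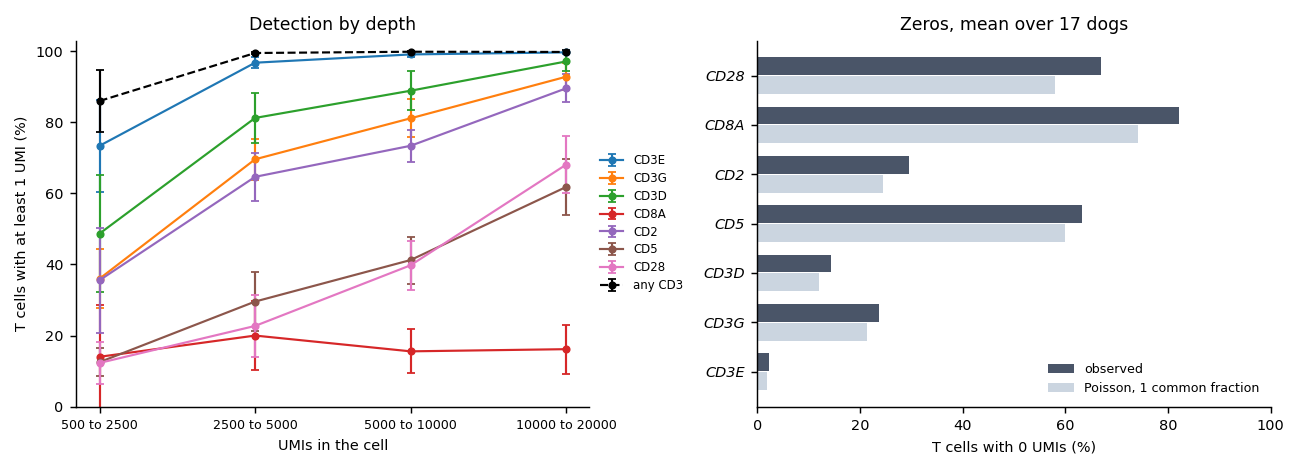
Left, the percent of T cells with at least 1 UMI of each gene, or of any CD3 gene (dashed), by the UMIs in the cell, as means with SD over dogs; right, the percent of T cells with 0 UMIs as observed (dark bars) and under a Poisson law with 1 common fraction (light bars), as means over 17 dogs. CD3E was at 73.4% of T cells in the shallowest bin and 99.7% in the deepest, CD8A stayed between 14.0% and 19.98%, and the gap between the bars was widest for CD28 (8.83 points) and CD8A (8.003 points).

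CD3E and CD3D were highest in the γδ T cell class, whereas CD3G was not. CD3E was at 1205 ± 62.2 CPM in γδ T cells (n = 5 dogs), above the level in unresolved CD4 T cells in 5 of 5 dogs, by 202 CPM on average. The next classes ran from 1034 ± 124 CPM in unresolved CD4 T cells to 883 ± 116 in naive/TCM CD4 T cells, and no neighbors in that order differed by more than the SD of the difference within dogs. CD8+ γδ T cells (988 CPM, n = 5), double-negative (DN) T cells (948, n = 13), unresolved naive T cells (908), effector/memory CD8 T cells (902) and effector memory CD4 T cells (901) lay between them. CD3D was at 641 ± 157 CPM in γδ T cells, again higher than in unresolved CD4 T cells (555 ± 109 CPM), taken whole, in 5 of 5 dogs. The clusters of the unresolved CD4 class differed. Pooled over dogs, CD3D was at 677 CPM in one of 797 cells, beside 690 CPM in the γδ cluster. It was at 546 and 429 CPM in the other unresolved CD4 clusters. Unresolved CD4 T cells were in turn above CD8+ γδ T cells (464 CPM) by 111 ± 73.8 CPM (4 of 5 dogs), and the remaining classes fell without a step beyond the spread to 345 ± 101 CPM in DN T cells, the lowest of these T cell classes. CD3G ran from 343 ± 58.2 CPM in effector/memory CD8 T cells over 308 ± 56.7 in γδ T cells to 223 ± 35.3 in DN T cells, with no step between neighbors beyond the spread within dogs.

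CD3D was also present in B cells, without the other chains. B cells held 157 ± 55.6 CPM of CD3D, against 7.78 ± 5.08 CPM of CD3E and 5.45 ± 3.14 CPM of CD3G. The lowest, median and highest levels of CD3D in B cells were 61.6, 151 and 230.2 CPM in healthy dogs and 101.5, 157 and 301 CPM in OS dogs. Every dog thus had CD3D in B cells, and the ranges of the 2 groups of dogs overlapped. These levels were 35.3% ± 8.5 of those in the T cells of the same dog, while CD3E in B cells was at 0.861% and CD3G at 1.77% of the T cell level.

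In single B cells the pattern was the same. CD3D was detected in 42.1% ± 10.2 of B cells, which had a median of 4022 UMIs, against 2.36% ± 1.72 of monocytes at 11060 UMIs, and at 1000 UMIs it was detected in 13.9% of B cells. It was found as the only CD3 transcript in 40.0% ± 9.08 of B cells and together with CD3E or CD3G in 2.10%, and 1.57% of B cells had CD3E or CD3G without it. CD3D made up 95.0% ± 2.8 of the CD3D and CD3E UMIs of B cells, with 88.0% in the lowest dog. In T cells that share was 32.2% ± 5.0, with 40.9% in the highest dog, and in monocytes 34.97% ± 5.4, so the share in monocytes was close to that in T cells and the share in B cells was not. CD3G made up 24.9% ± 3.301 of the CD3G and CD3E UMIs in T cells, 38.8% ± 11.9 in B cells (n = 14) and 39.2% ± 11.4 in monocytes, so here B cells and monocytes both lay above T cells. All 12 B cell markers were higher in these cells than in the rest, CD2 was at 3.06 ± 1.96 CPM and CD28 at 0.73 ± 0.96 CPM.

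CD3D differed among B cell clusters. The main B cell cluster, 5783 cells led by TNFRSF13C and PAX5, had 154 CPM of CD3D and a transcript in 42.7% of cells. A cluster of 557 cells led by VPREB3, a surrogate light chain gene of immature B cells, had 220.2 CPM and 63.9%. A cluster of 660 B cells with a median of 0.518% ribosomal transcripts and 2525.5 UMIs had 12.5 CPM and 3.18%. Plasma cells held 46.7 ± 28.8 CPM (n = 12), 9.88% of the T cell level, with CD3D in 22.4% of cells at a median of 14852 UMIs. In a small cluster of 42 CD34+ cells CD3D was at 40.9 CPM, with a transcript in 31.0% of cells, and CD3E at 18.7 CPM. CD3D above CD3E was not limited to these cells. An unnamed cluster of 205 T or NK cells, kept out of both classes, had CD3D at 489 CPM in 82.4% of cells. CD3E was at 352 CPM in 39.5% of that cluster and CD3G at 151 CPM in 40.5%. Keeping called doublets raised CD3E in B cells to 57.7 CPM and CD3G to 20.1 CPM, while CD3D stayed between 151 and 169.5 CPM over all alternatives except healthy dogs only (140.6 CPM).

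**Figure D2:**
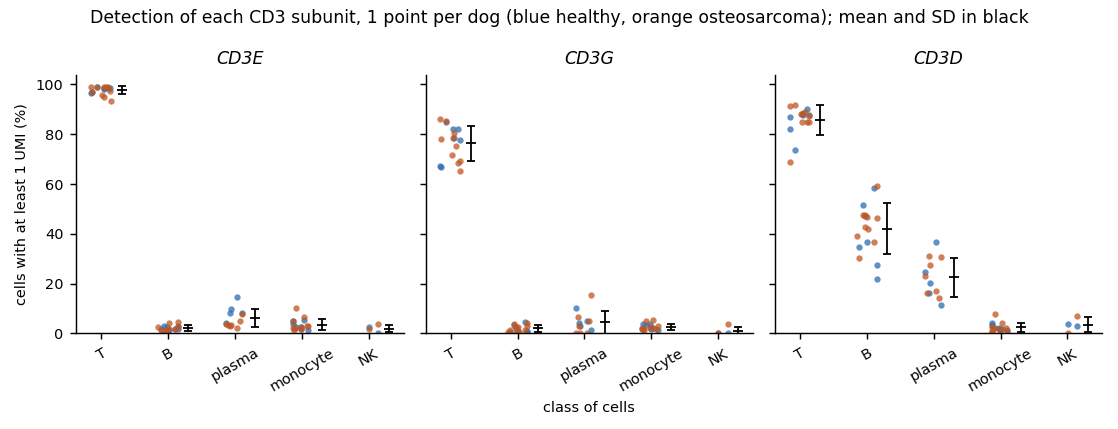
Percent of cells with at least 1 UMI of CD3E, CD3G and CD3D in T, B, plasma, monocyte and NK classes, with 1 point per dog (blue healthy, orange OS) and the mean and SD in black. CD3D points of B cells center on 42.1%, whereas CD3E and CD3G points of B cells lie near 0.

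Through CD3D, B cells entered a gate on CD3 transcripts. Of the leukocytes with at least 1 CD3 UMI, 85.0% ± 4.37 were T cells, 6.64% ± 3.43 were B cells or plasma cells (2.21% to 13.6%) and 2.02% were monocytes. Low-ribosomal T cells made up 2.50% of the gate and T cells with platelet genes, a class of 1222 cells also kept apart, 2.38%. Asking for 3 UMIs raised the T cells to 93.9% and lowered the B lineage to 1.31%. NK cells made up 0.0343% of the leukocytes with 1 CD3 UMI. Of all CD3D UMIs in leukocytes 90.8% lay in T cells and 4.55% in B lineage cells, where T cells held 94.8% of those of CD3E and 94.8% of those of CD3G.

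NK cells had CD2 without the receptor complex. The class held 345 cells, and 4 dogs had at least 25 of them, 2 healthy and 2 with OS. CD2 was at 338.6 and 364.4 CPM in the healthy dogs H3 and H5 and at 307.2 and 361.4 CPM in OS2 and OS6. Each was above the level in T cells of the same dog, at 140.4% ± 10.2 of it, and within the spread of effector/memory CD8 T cells, which were higher in 3 of the 4 dogs. CD3E was at 0, 4.03, 37.8 and 3.61 CPM in NK cells of the same dogs, and CD3G at 0 in 3 of them and 18.9 CPM in OS2. The values of CD3D were 6.91, 8.05, 33.1 and 0 CPM. The values of OS2 were the highest for each CD3 transcript and rest on very few cells, since CD3E was found in 3.57% of its 28 NK cells, CD3G in 3.57% and CD3D in 7.14%, that is in 1, 1 and 2 cells. CD3D in OS2 was at 7.44% of the level in T cells of the same dog.

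CD5 in NK cells was at 26.8 ± 8.8 CPM (n = 4), 33.4% of the T cell level and below effector/memory CD8 T cells in 4 of 4 dogs. CD28 had no UMI in the NK cells of 3 dogs and was at 4.73 CPM in OS2. CD8A had a UMI in 0 of the 203 NK cells of these 4 dogs, which allows a share of up to 1.478% of cells with a UMI in these dogs (counting error only, and no limit on cells that express the gene). The NK cells of the other dogs brought 5 cells with a UMI among all 345. Effector/memory CD8 T cells held CD3E at 898 CPM in the same 4 dogs, against 11.4 ± 17.7 CPM in NK cells. The kinase ZAP70 was at 193 CPM in NK cells and 147 CPM in effector/memory CD8 T cells, and 1.14 CPM in B cells.

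CD2 was also found in dendritic cells, and at a low level in monocytes. Dendritic cells held 67.8 ± 22.9 CPM of CD2 (n = 15; 37.1 to 122 CPM), 25.3% ± 10.1 of the T cell level, with a transcript in 40.3% of cells at a median of 14813 UMIs. A dendritic cell cluster of 710 cells led by PKIB and MRC1 had 92.8 CPM and CD2 in 58.3% of cells, while the other 3 dendritic cell clusters had 24.9 to 33.8 CPM and CD2 in 17.9% to 20.6%. CD2 in monocytes was at 19.1 ± 8.48 CPM, 7.09% of the T cell level, where CD3E was at 5.73 ± 4.88 CPM. In a cluster of 9128 monocytes led by BPI it was at 20.6 CPM in 18.4% of cells, and in a cluster of 4330 cells led by IL1B at 7.31 CPM in 4.64%. The CD34+ cluster of 42 cells had 121 CPM of CD2, with a transcript in 54.8% of cells. Of all CD2 UMIs in leukocytes 6.47% lay in myeloid cells, against 0.81% to 2.94% for the other 6 genes.

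CD5 and CD28 were low in B lineage and myeloid classes taken whole. CD5 in B cells was at 6.30 ± 3.20 CPM, 7.15% of the T cell level and above monocytes (2.14 CPM) in 17 of 17 dogs, and in the 3 B cell clusters at 4.18 to 6.21 CPM. CD28 was at 5.49 CPM or less in all B lineage and myeloid classes. CD3E in dendritic cells was at 39.1 ± 90.6 CPM, a mean set by OS6 at 352 CPM and H2 at 110.4 CPM, while the other 13 dogs lay between 0.946 and 19.1 CPM. Over all dogs most CD3E UMIs of dendritic cells, 658, lay in a cluster of 325 cells led by IGF1 and RAB3C, markers of plasmacytoid dendritic cells, and 98, 18 and 9 in the other clusters. In that cluster CD3E was at 152 CPM (21.8% of cells), CD3D at 67.7 CPM (19.4%), CD3G at 30.4 CPM (14.8%), CD8A at 18.3 CPM (10.8%), CD5 at 16.2 CPM (14.5%) and CD28 at 15.8 CPM (10.2%). All members were thus found in it, and whether T cell RNA or doublets have a part in these values was not tested. Neutrophils had 18.2 ± 17.8 CPM of CD3E and eosinophils or basophils 16.1 ± 13.8 CPM (n = 15).

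**Figure D3:**
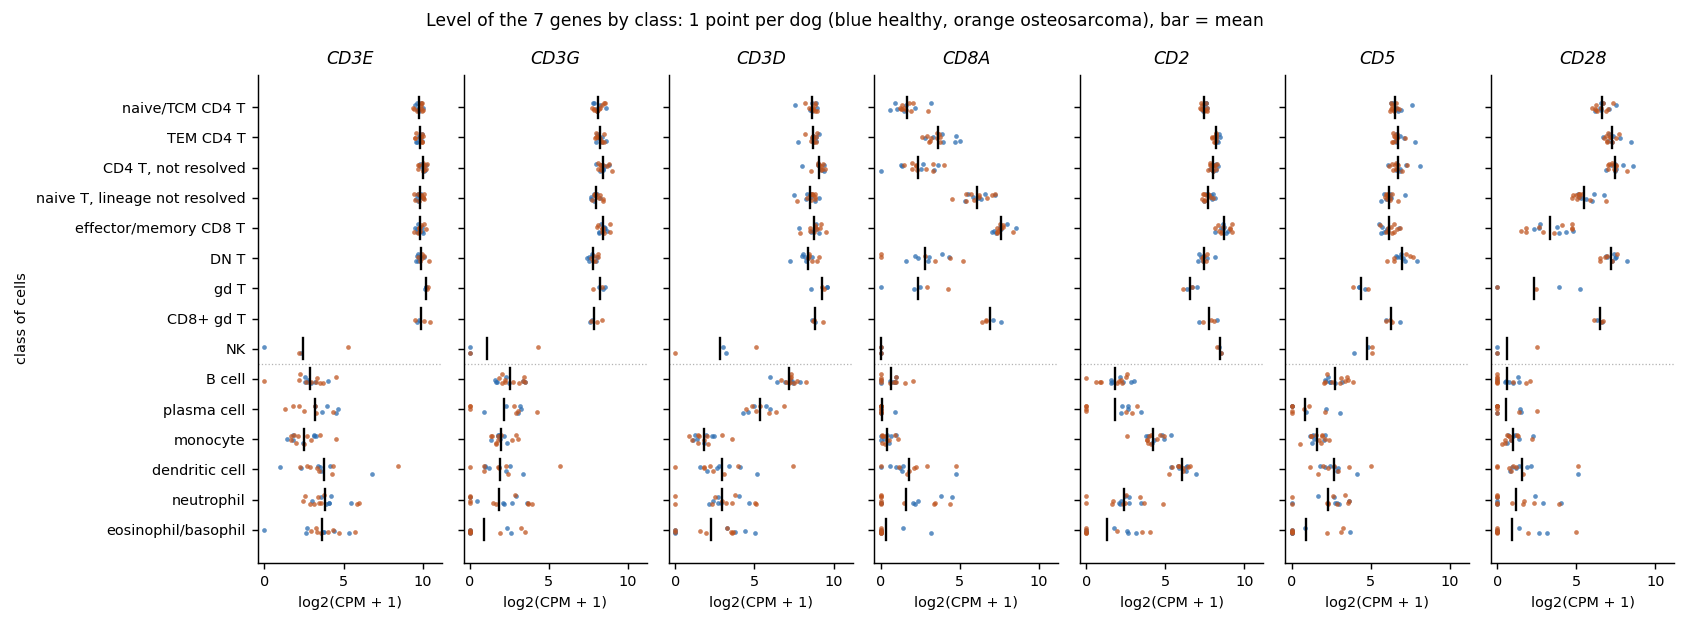
Level of each gene, 1 panel per gene, as log2(CPM + 1) on the x axis by class of leukocyte on the y axis (gd stands for γδ), with 1 point per dog with at least 25 cells of the class (blue healthy, orange OS) and a black bar for the mean over dogs. CD2 is the gene that stays high in NK cells (343 CPM) and reaches dendritic cells (67.8 CPM), and CD3D the one that reaches B cells (157 CPM).

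CD8A was highest in effector/memory CD8 T cells and CD8+ γδ T cells, and many of their cells had no transcript. Effector/memory CD8 T cells held 199.7 ± 63.9 CPM (129 to 376 CPM), and 54.2% ± 9.99 of them had a transcript. CD8+ γδ T cells held 123 ± 44.4 CPM (n = 5), lower than effector/memory CD8 T cells in 4 of 5 dogs. Unresolved naive T cells held 74.7 ± 38.4 CPM, from 21.4 to 149 CPM over dogs, and stood below the CD8+ γδ class in 5 of 5 dogs. Effector memory CD4 T cells had 12.8 ± 7.52 CPM, DN T cells 9.73 ± 9.91 (n = 13), γδ T cells 6.49 ± 6.78 (n = 5) and naive/TCM CD4 T cells 2.51 ± 2.07. Dendritic cells (5.12 CPM) and neutrophils (5.08 CPM) fell between them, and no neighbors in this stretch of the order differed beyond the spread within dogs.

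CD8A and CD4, the coreceptor for class II molecules, were rarely found in the same cell. Among all T cells 17.4% had CD8A alone, 32.6% CD4 alone, 0.448% both and 49.6% neither. In effector/memory CD8 T cells 53.6% had CD8A alone and 43.9% neither, and in CD4 T cells 48.9% had CD4 alone and 48.7% neither. DN T cells had neither in 93.5% of cells and γδ T cells in 96.1%. DN and γδ T cells are therefore not set apart by the presence of cells lacking both transcripts, which the CD4 and CD8 classes also held. Among the T cell classes it is their share that differs. Unresolved naive T cells had CD8A alone in 28.9% of cells, CD4 alone in 8.42% and neither in 62.3%. NK cells had neither in 99.2% (n = 4). CD4 was also found in neutrophils, which had it without CD8A in 96.8% of cells.

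CD2 was higher in effector/memory CD8 and effector memory CD4 T cells than in naive/TCM CD4 T cells. Effector/memory CD8 T cells held 422 ± 104 CPM (275 to 603 CPM) and naive/TCM CD4 T cells 175 ± 18.4 CPM (143 to 201 CPM), so their ranges did not overlap. Effector memory CD4 T cells held 291 ± 27.0 CPM (241 to 351 CPM), above naive/TCM CD4 T cells in 17 of 17 dogs and 1.66-fold higher. γδ T cells had 94.8 ± 22.7 CPM (n = 5), 36.2% of the level in all T cells of the same dogs. The CD2 ligand CD48 was found in every class, from 123 CPM in naive/TCM CD4 T cells to 418 CPM in neutrophils, and CD58 at 4.44 to 36.6 CPM.

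CD28 was high in CD4 and DN T cells and low in effector/memory CD8 and γδ T cells. Unresolved CD4 T cells held 183 ± 67.9 CPM, effector memory CD4 T cells 157 ± 60.2, DN T cells 151 ± 53.6 (n = 13) and naive/TCM CD4 T cells 101 ± 32.6 CPM. DN T cells were above naive/TCM CD4 T cells, taken whole, in 13 of 13 dogs. The 4 clusters of that class differed, with 162 CPM of CD28 in the largest (3845 cells), beside 153 CPM in the DN cluster, and 55.4 to 82.04 CPM in the other 3. In effector/memory CD8 T cells CD28 was at 12.4 ± 9.26 CPM (1.80 to 26.7 CPM), 8.18-fold lower than in naive/TCM CD4 T cells, whose range of 64.0 to 180 CPM did not overlap. CD8+ γδ T cells, at 88.7 ± 14.7 CPM, and γδ T cells, at 11.0 ± 15.5 CPM (both n = 5), differed in this gene. Of the ligands, CD86 was at 215 CPM in monocytes and 227 CPM in dendritic cells and at or below 10.1 CPM in the other classes, whereas CD80 was highest in effector memory CD4 T cells, at 269 CPM.

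CD5 had its highest mean in DN T cells among the T cells with usual ribosomal content, and was low in γδ T cells. DN T cells had 130.4 ± 49.2 CPM (n = 13) and unresolved CD4 T cells 112 ± 46.9 CPM, the DN level being higher in 8 of 13 dogs. Effector memory CD4 T cells had 107 ± 33.5, naive/TCM CD4 T cells 95.7 ± 27.4 and effector/memory CD8 T cells 71.9 ± 21.7 CPM. No neighbors from DN to naive/TCM CD4 T cells differed beyond the spread within dogs. γδ T cells had 19.9 ± 5.21 CPM (n = 5), 20.99% of the level in all T cells of the same dogs, while their CD3E was at 136% and CD3D at 169% of it. CD6, a scavenger-family receptor like CD5, was at 9.46 CPM in γδ T cells and 135 CPM in DN T cells. THEMIS, a thymocyte selection gene, was at 14.4 and 411 CPM in these classes.

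A class of 1974 T cells with a median of 0.779% ribosomal transcripts and 2700.5 UMIs was kept apart for its ribosomal share, and the members differed in it. Relative to T cells of the same dog, CD3D was at 22.4% ± 22.6, CD3G at 31.4% ± 22.4, CD2 at 43.2% ± 22.1 and CD3E at 48.2% ± 19.6, while CD8A was at 127% ± 66.0, CD28 at 179% ± 50.2 and CD5 at 203% ± 65.9. The class held 2 unlike clusters. One of 1550 cells had 25.98 CPM of CD8A and 218 CPM of CD28, and one of 424 cells had 230.2 CPM of CD8A and 45.4 CPM of CD28, so the high CD8A and the high CD28 came from different clusters. CD5 was at 192 and 118 CPM and CD3D at 109.6 and 87.3 CPM in these clusters. All T cells had a median of 20.8% ribosomal transcripts. Any CD3 transcript was found in 63.2% ± 18.1 of these cells. They made up 3.22% to 12.8% of T cells and low-ribosomal T cells together in healthy dogs and 2.66% to 5.06% in OS dogs. Whether the low ribosomal share has a part in the levels was not tested.

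For each member the 5 genes with the most similar level over 16 classes were taken. Pearson correlations were taken over class means of log2(CPM + 1) for 9851 genes, classes share libraries, and the values are descriptions. CD3E was most like CD3G (0.983), followed by INPP4B (0.960), BCL11B (0.957), IL7R (0.945) and LZIC (0.942). CD3G was most like CD3E, then LZIC, BCL11B, SH3RF3 and INPP4B. CD3D, with its B cell level, was most like EVL (0.942), ZCCHC8, DOCK3, ENSCAFG00000002851 and PATJ, and its correlation with CD3E was 0.888. CD2 was most like UBASH3A (0.944), ENSCAFG00000025128, GPR171, PRKCH and ZNRF3, CD5 like CD6 (0.965), CAMK4, PVRIG, BCL11B and THEMIS, and CD28 like EFHC2 (0.974), DPP4, LEF1, CD6 and KLHL4. CD8A had the lowest values, with ENSCAFG00000007461 first (0.781), then CD3E (0.747), ZBTB8A, ANKS1B and CTSW (0.729). Without the NK class the first 5 genes stayed the same for CD2, 3 stayed for CD5 and for CD28, 1 stayed for each of CD3G, CD3D and CD8A, and none stayed for CD3E. CD27 (0.994) then came first for CD3E, ZAP70 (0.989) for CD3G, and CD96 (0.912) for CD8A, so the genes printed for these members depend on the NK class.

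The comparison of OS with healthy dogs asked whether the tumor went with another level of these genes. No member was called in T cells, where none of 15129 genes was called (0%) at an adjusted p under 0.01 and an absolute log2 fold change over 0.58 in edgeR's quasi-likelihood test on UMIs summed per dog. At an unadjusted p under 0.05, 474 genes (3.13%) and no member passed. CD3E in T cells was at 781, 869.8 and 1025 CPM (lowest, median, highest) in healthy dogs and at 724, 963 and 1126 CPM in OS dogs. Its log2 fold change was 0.08 ± 0.13 (SE), and the ranges overlapped, as they did for every member.

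CD3G was at 253, 299.9 and 392 CPM in healthy dogs and 247, 302 and 400.3 CPM in OS dogs, with a log2 fold change of 0.09 ± 0.12. CD3D was at 212, 434 and 528 CPM in healthy and 291, 457 and 541 CPM in OS dogs, with 0.13 ± 0.20. CD8A was at 22.7, 59.5 and 86.5 CPM in healthy and 25.9, 45.9 and 111 CPM in OS dogs, with 0.06 ± 0.29. For these coreceptor and receptor genes the ranges of the groups overlapped. T cells here pool classes that differ in several members, CD8A, CD2 and CD28 among them. Effector/memory CD8 T cells made up 8.54% of T cells in OS5 and 44.8% in OS1. Class makeup and level per cell therefore cannot be told apart in the T cell values of any member. CD2 was at 229, 262 and 329 CPM in healthy and 217, 252 and 358 CPM in OS dogs, with 0.04 ± 0.14. CD5 was at 73.9, 89.3 and 183 CPM in healthy and 74.9, 84.0 and 111 CPM in OS dogs, with -0.13 ± 0.11. CD28 was at 73.0, 86.5 and 208 CPM in healthy and 56.6, 90.0 and 154 CPM in OS dogs, with -0.22 ± 0.17. The unadjusted p of the 7 genes ran from 0.203 (CD28) to 0.832 (CD8A) in edgeR, and the adjusted p was 0.9999 for each.

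The highest CD5 and CD28 of the healthy dogs and the lowest CD3D belonged to 1 dog, H2, whose T cells had a median of 10.8% ribosomal transcripts. OS3 and OS1 had 14.2% and 15.8%, and the other dogs 18.7% to 23.5%. OS3, the library with the fewest barcodes, had the highest CD28 and the lowest CD3D of the OS dogs. Whether the ribosomal share has a part in these levels was not tested. Leaving out any 1 dog gave no called gene in T, CD4 T or CD8 T cells.

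**Figure D4:**
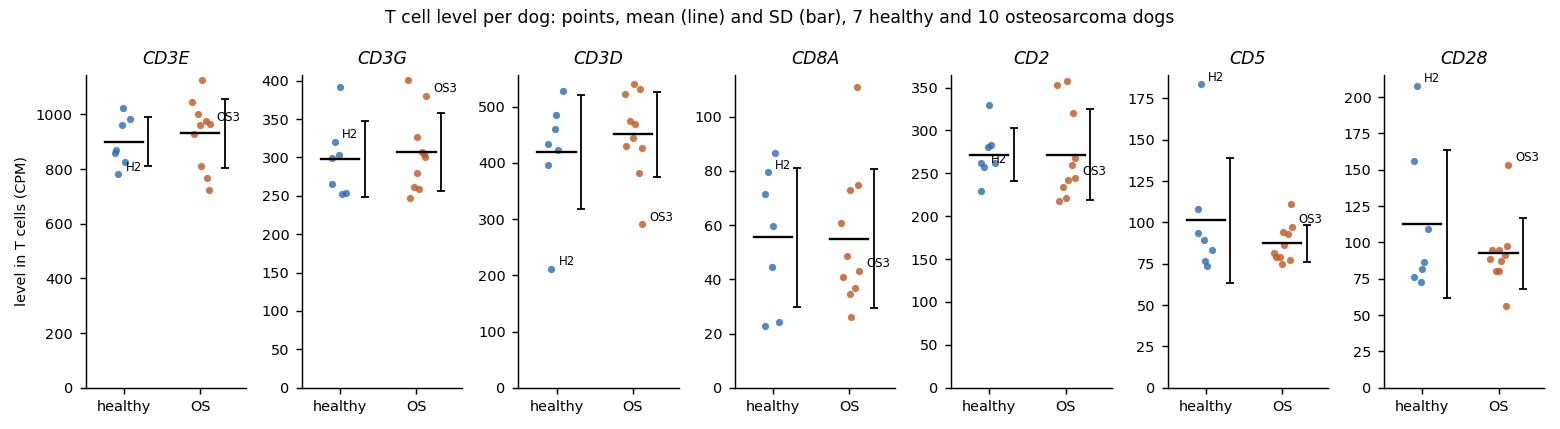
Level of each gene in CPM (linear axis from 0) in the T cells of each dog, healthy (n = 7) beside OS (n = 10), with 1 point per dog, a line for the mean and a bar for the SD of each group. The ranges overlap for all 7 genes, and the dogs H2 and OS3 are named, H2 being at 212 CPM of CD3D and 183 CPM of CD5.

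Within CD4 and CD8 T cells no gene was called either (0% of 14453 and 0% of 12937). The CD8 T cells tested were the effector/memory CD8 class alone, since no cluster was named naive CD8. The CD4 T cells were the naive/TCM (12458 cells), effector memory (8598) and unresolved (4367) CD4 classes. Unresolved naive T cells were in neither set. At an unadjusted p under 0.05, 473 genes (3.27%) passed in CD4 T cells and 532 (4.11%) in CD8 T cells, and CD5 was the only member among them in each. In CD4 T cells CD5 was at 87.7, 101.6 and 213 CPM in healthy and 79.6, 87.1 and 130.3 CPM in OS dogs, with 1 of 10 OS dogs above the healthy median. The log2 fold change was -0.27 ± 0.12 (edgeR, unadjusted p = 0.0294, adjusted p = 0.9997), and -0.15 without H2. In CD8 T cells it was at 45.1, 54.8 and 107 CPM in healthy and 46.05, 78.3 and 115 CPM in OS dogs, with 9 of 10 OS dogs above the healthy median and a log2 fold change of 0.38 ± 0.17 (edgeR, unadjusted p = 0.0321, adjusted p = 0.9994). With middle-aged dogs only, the latter was 0.06.

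The difference between these 2 sets of cells was compared directly, in a test chosen after these values were seen. Naive/TCM cells lie in the CD4 set only, so lineage and memory state cannot be told apart in it. Log2(CPM + 1) of CD5 in CD8 minus CD4 T cells was -0.90 ± 0.21 (SD) in the 7 healthy dogs and -0.26 ± 0.41 (SD) in the 10 OS dogs, and 10 of 10 OS dogs were above the healthy median. In an edgeR fit with the dog as a term over 14910 genes, CD5 differed by 0.62 ± 0.15, with an unadjusted p = 0.00031 and an adjusted p = 0.966. No gene was called (0%) and 746 (5%) passed an unadjusted p under 0.05, so the difference did not pass the adjustment over all genes. Among middle-aged dogs it was 0.35. In the largest effector/memory CD8 cluster the median of CD5 was 51.6 CPM in healthy and 79.5 CPM in OS dogs. The clusters of this class differed in CD5, from 47.4 to 81.9 CPM pooled over dogs. Whether their mix has a part in the difference was not tested.

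In NK cells, with 2 dogs against 2, 5 of 7404 genes were called (0.0675%) and no member was among them, while 309 genes (4.17%) passed an unadjusted p under 0.05. CD2 had a log2 fold change of -0.02 ± 0.30, CD5 of 0.91 ± 0.67, CD3D of 1.00 ± 1.14 and CD3E of 2.59 ± 1.23 (edgeR, unadjusted p = 0.0447, adjusted p = 0.9998), the last resting on OS2. With a looser cell filter the values of CD3E and CD3D turned to -2.47 and -2.39, that of CD3D was also below 0 without correction across dogs, and that of CD5 fell to 0.22 without H5, so none of these directions is read. CD3G, CD8A and CD28 were under the minimum of 10 counts there. In the sum of all leukocytes, where fewer T cells and less RNA per T cell cannot be told apart, none of 16266 genes was called (0%) by edgeR and 3 by DESeq2, 928 genes (5.71%) passed an unadjusted p under 0.05 in edgeR, and the members lay between -0.24 (CD28) and 0.14 (CD3D).

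No other gene of the pathway was called. Of the T cell receptor signaling list 28 of 30 genes were tested in T cells, and 0 were called in either direction, with a median log2 fold change of 0.01 beside 0.01 over all genes. The smallest unadjusted p belonged to BCL10, an adaptor to NF-κB, at -0.20 (p = 0.0419 in edgeR), LAT, the scaffold phosphorylated by ZAP70, at 0.50 (p = 0.0594), and CD4 at -0.22 (p = 0.211). None of the 4 ligands tested was called, among them CD80 at 0.30 (p = 0.0922), CD48 at 0.11 and CD58 at 0.01. None of the 9 costimulatory receptors was called, among them TNFRSF9 at -0.87 (p = 0.201), ICOS at -0.21 (p = 0.201) and CTLA4 at -0.10. CD8B, CD247 and ICOSLG were not analysed here.

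Shares of cells with a transcript were compared after thinning to 1000 UMIs. Leukocytes with a CD3 transcript had a median share of 45.0% in healthy and 46.5% in OS dogs, with p = 0.536 in Wilcoxon's rank-sum test, exact and two-sided (0.804 when adjusted over 3 shares), and 6 of 10 OS dogs above the healthy median. At that depth 14.7% ± 4.28 of B cells also had a CD3 transcript, so this share is not one of T cells alone. Of the CD3-positive leukocytes 4.95% in healthy and 4.34% in OS dogs had CD8A (exact p = 0.962, adjusted 0.962). T cells without a CD3 transcript made up 21.4% and 20.1% (exact p = 0.536, adjusted 0.804), and 23.6% and 21.2% with low-ribosomal T cells included (exact p = 0.193). As deposited, the 3 shares were 63.3% and 61.4%, 15.9% and 14.8%, and 0.312% and 0.444%. Leukocytes had a median of 5642.5 UMIs in the median healthy dog and 5487 in the median OS dog.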

How the data were processed

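The deposited values were UMI counts per gene and barcode, 1 matrix per dog. Per the labels the authors used Cell Ranger 7.0.0 and Seurat with CanFam3.1. The authors aligned with and without introns, and which counts were deposited is not given in the sources used here. The files held 0 columns of other samples. The members and lists were chosen with earlier results of these data known.

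Cells with over 200 and under 4500 genes, over 500 and under 20000 UMIs and under 10% mitochondrial counts were kept. The highest doublet scores, from simulated pairs with Scrublet as run in scanpy, were removed up to 0.8% per 1000 barcodes. Clustering used 2000 variable genes, 30 principal components, a correction across dogs, 20 neighbors and the Leiden method (leidenalg 0.10.2) at a resolution of 1.0 for all cells and 1.5 for T and NK cells, without 35 genes (members and receptor signaling list), ribosomal or mitochondrial genes. Clusters were named by mean log2 fold over marker lists, with a least fold of 0.3 and a least lead of 0.3 set after the clusters had been seen, as was the limit on ribosomal share by which low-ribosomal T cells were kept apart.

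Counts of dogs with at least 25 cells were summed and tested with edgeR 4.0.16 (R 4.3.3, TMM normalization, quasi-likelihood test, Benjamini-Hochberg adjustment) for genes with at least 10 counts. In data simulated for T cells with 200 genes changed 3-fold, it recovered 69.9% of them among 14936 genes, and 26.0% among 7274 genes for NK cells. Shares were tested with the exact Wilcoxon rank-sum test, by listing all assignments of dogs to groups, at 1000 UMIs per cell. Errors of these values cover dogs, and limits for a count of 0 cover counting error only. Alternatives were DESeq2 1.42.0, other gene and cell filters, normalization, sex and age, doublets kept, other clusterings, thinning to 2000 UMIs, and leaving out each dog. The text names the members throughout, from each list the genes past the test or else the 3 with the smallest unadjusted p in T cells, and for each member the 5 genes most like it over classes. Leading genes of clusters, DN and γδ values of CD6 and THEMIS, and levels of ZAP70, CD86, CD80, CD48 and CD58 by class were chosen after their values were seen.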

Additional observations from a re-analysis of the deposited data

Results flagged for a closer look

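The levels of the members in T cells, CD4 T cells, CD8 T cells and all leukocytes and the 3 shares of cells were searched for dogs far from their group. Of 62 sets of dogs tested 8 were set apart by Dixon's criterion, where chance sets apart about 1 in 20 independent sets. These sets overlap, because all leukocytes hold the T cells and these hold the CD4 and CD8 T cells of the same dogs. The count of 8 is therefore not read against that rate. In the healthy dog H2, CD3D was at 211.7 CPM in T cells, the next lowest healthy dog being at 395.6, and at 209.3 CPM in CD4 T cells, the next being at 401.5. CD5 in H2 was at 183.5 CPM in T cells (next highest 108.4), 213.2 CPM in CD4 T cells (122.6) and 106.8 CPM in CD8 T cells (64.02). The T cells of H2 had a median of 10.8% ribosomal transcripts, the lowest of the 17 dogs, and the part of that share in the levels was not tested. CD28 was at 153.6 CPM in the T cells of OS3, the next highest OS dog being at 97.63 CPM. CD5 was at 130.3 CPM in the CD4 T cells of OS1, the next being at 101.3 CPM. CD8A was at 321.3 CPM in the CD8 T cells of OS9, the next being at 211.1 CPM.

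For CD5, the difference in log2(CPM + 1) between CD8 (effector/memory only) and CD4 T cells was 0.644 higher in OS dogs than in healthy ones. Wilcoxon's rank-sum test, exact and two-sided, gave p = 0.00195. The test was chosen after the values were seen and is 1 of 7 such tests, the others giving exact p = 0.364 to 0.962. Leaving out each dog in turn gave exact p = 0.000699 to 0.00475. The same contrast over all genes in edgeR left an adjusted p of 0.966.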

How the results depend on the processing

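No gene was called in T, CD4 T or CD8 T cells under any alternative, leaving out each dog included. All leukocytes gave 0 called genes in edgeR and 3 with DESeq2, none of them a member. In NK cells, with 2 dogs a group, the 5 called genes became 2 with DESeq2, 19 without a gene filter and 11 with edgeR's filterByExpr. They became 30 with sex as a covariate, 1 with doublets kept and 1 at a resolution of 0.5. With a minimum of 10 cells, which took in 6 healthy and 5 OS dogs, 1 gene was called. Leaving out a dog leaves 1 dog in a group, and those counts are not given. The causes were not tested, and no calls in NK cells are read from these counts.

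Thinning to 2000 UMIs raised detection in T cells to 82.75% for CD3E, 44.42% for CD3G, 56.22% for CD3D, 9.642% for CD8A, 40.12% for CD2, 16.18% for CD5 and 15.37% for CD28, and of CD3D in B cells to 25.16%. With doublets kept, levels in B cells were 57.72 CPM for CD3E, 20.07 for CD3G, 4.189 for CD8A, 19.58 for CD2, 10.95 for CD5 and 6.028 for CD28, and in monocytes 24.1 CPM for CD3E, 9.075 for CD3G, 12.11 for CD3D, 1.674 for CD8A, 4.319 for CD5 and 3.384 for CD28. CD8A in NK cells was at 2.31 CPM with doublets kept and 2.963 CPM without correction across dogs.

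The replicate numbers name different dogs, and deviations of same-numbered dogs correlated at -0.328 to 0.142, so the numbers do not pair them. With the replicate block, the median paired differences in share were 9.23 points for CD3 (exact p = 0.391), -1.385 for CD8A (exact p = 0.688) and -0.33 for T cells without CD3 (exact p = 0.344), and 0 genes were called in T, CD4 T, CD8 T and all leukocytes. The block was not possible in NK cells, where the 2 groups share fewer than 2 numbers. Without the block and leaving out each dog, the differences were -0.21 to 3.77, -1.33 to -0.09 and -2.02 to -0.18 points.

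For CD5, the added CD8 minus CD4 contrast was 0.55 to 0.64 over alternatives (adjusted p = 0.934 to 0.985) and 0.35 among middle-aged dogs, also chosen after seeing the data. The number of cells limits rare classes, since NK, γδ and CD8+ γδ T cells reached 25 cells in 4, 5 and 5 dogs and cycling and interferon-signature T cells in 0.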
